A study of Homo sapiens with 12 samples.

Results

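The 4 Notch receptor genes NOTCH1, NOTCH2, NOTCH3 and NOTCH4, the 5 ligand genes DLL1, DLL3, DLL4, JAG1 and JAG2, and the target gene HES1 were followed in peak lists of 2 histone marks. They are 10 of 19974 protein-coding genes of chromosomes 1 to 22 and X, taken from a list of names and not by a cut on their values. Earlier results of these data were known when the list was chosen. The cells were MKL-1, a cell line from a polyomavirus-positive Merkel cell carcinoma. The treated group was kept for 6 days in 3 µM EPZ011989 with 1% ethanol; the compound blocks EZH2, the enzyme that methylates H3K27. The vehicle group had 1% ethanol alone for the same time, and cells of both groups got fresh medium on day 3. Every culture was split for CUT&RUN with an H3K27me3 antibody, an H3K4me3 antibody or IgG, in which a nuclease tethered by the antibody releases the bound DNA. This gave 12 libraries, 2 per treatment and antibody. Because both replicates are cultures of MKL-1, their spread says nothing of how tumours differ from each other.

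Notch signalling passes between touching cells. A ligand of the Delta-like or Jagged family on one cell binds a Notch receptor on the next, the receptor is cleaved, and its intracellular part enters the nucleus and joins the DNA-binding protein RBPJ to switch on genes such as HES1. HES1 encodes a transcriptional repressor, and in neuroendocrine tumours Notch activity is known to oppose the neuroendocrine state. DLL3 is an atypical ligand, held largely inside the cell, that inhibits Notch and is displayed on the surface of neuroendocrine tumour cells. H3K27me3 is the repressive mark written by EZH2, and H3K4me3 marks active or poised gene starts.

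Upstream sequences of 4 members are shown because these genes differ in how H3K4me3 met their start sites. Each is the 250 bases before the start site, 5′ to 3′ on the gene's strand, from RefSeq on GRCh38.p14, and capitals mark TGGGAA, the core letters bound by RBPJ, on either strand. The HES1 sequence is chr3:194135898-194136147 on the plus strand. NOTCH1 (chr9:136546049-136546298), NOTCH3 (chr19:15200996-15201245) and NOTCH4 (chr6:32224068-32224317) lie on the minus strand.
HES1: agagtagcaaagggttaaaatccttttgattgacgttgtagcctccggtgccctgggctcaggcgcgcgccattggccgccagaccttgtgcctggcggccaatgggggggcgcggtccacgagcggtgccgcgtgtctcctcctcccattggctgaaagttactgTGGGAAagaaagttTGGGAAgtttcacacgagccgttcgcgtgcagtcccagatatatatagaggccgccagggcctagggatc
NOTCH1: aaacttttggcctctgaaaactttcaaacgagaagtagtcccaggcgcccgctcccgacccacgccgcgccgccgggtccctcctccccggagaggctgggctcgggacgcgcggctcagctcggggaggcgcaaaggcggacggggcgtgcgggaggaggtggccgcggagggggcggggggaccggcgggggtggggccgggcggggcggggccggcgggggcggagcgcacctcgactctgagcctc
NOTCH3: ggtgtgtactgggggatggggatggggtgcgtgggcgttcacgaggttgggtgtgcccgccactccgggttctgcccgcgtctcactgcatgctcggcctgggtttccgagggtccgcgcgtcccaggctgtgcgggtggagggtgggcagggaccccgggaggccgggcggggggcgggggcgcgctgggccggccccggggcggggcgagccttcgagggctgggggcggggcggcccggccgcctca
NOTCH4: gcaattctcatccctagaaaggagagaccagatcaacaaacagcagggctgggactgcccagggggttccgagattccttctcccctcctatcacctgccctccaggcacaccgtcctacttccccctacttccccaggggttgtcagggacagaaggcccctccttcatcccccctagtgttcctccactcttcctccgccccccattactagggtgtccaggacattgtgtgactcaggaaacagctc
HES1 held TGGGAA 2 times, starting 84 and 70 bases before the start site. The other 7 members with an entry in the promoter table (NOTCH1, NOTCH2, NOTCH3, NOTCH4, DLL4, JAG1 and JAG2) held it 0 times in this stretch, and 20.2% of 15812 protein-coding promoters of the same length held it on either strand. CpG dinucleotides numbered 18 in HES1, 33 in NOTCH1, 28 in NOTCH3 and 3 in NOTCH4, against a median of 17 over those promoters. In the other members the number was 29 for NOTCH2, 20 for DLL4, 17 for JAG1 and 38 for JAG2. NOTCH4 thus had the fewest of these 8, and it was also the gene with no H3K4me3 within 2500 bp of its start site in any of the 4 libraries.

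Each gene was given, per library, the count of bases inside the authors' peaks within 2500 bp to each side of either gene end. It measures how far a mark extends, not how strong it is, and it is not scaled between libraries. On chromosomes 1 to 22 and X, vehicle H3K27me3 lists held 40782 and 44287 peaks and EPZ011989 lists 363 and 22. H3K4me3 lists held 21086 to 23804. Read depth is unknown. A stand-in, the background in fragments per base solved from each list, was 1.12 and 1.63 in vehicle H3K27me3, 0.373 and 0.148 in EPZ011989 H3K27me3, and for H3K4me3 0.572 and 0.857 in vehicle and 1.48 and 1.24 with EPZ011989. No member had an IgG peak in any library, where 0.0501% of all genes did. The cell type was checked on H3K4me3 in vehicle: 15 of 15 Merkel cell and neuroendocrine markers had a peak in both libraries. So did 1 of 5 keratinocyte, 3 of 5 fibroblast, 1 of 4 endothelial and 2 of 5 lymphoid and myeloid markers.

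The first question was how far EZH2 inhibition removed H3K27me3 from these genes. In vehicle, 7 of the 10 carried a peak in both libraries: the receptor genes NOTCH1, NOTCH3 and NOTCH4, the ligand genes DLL1, DLL4 and JAG1, and HES1. Over all genes the share was 36.9%. With EPZ011989, 0 members had a peak in either library, where 0.205% of all genes had one. The 7 were thus marked throughout vehicle and nowhere with EPZ011989 (36.8% of all genes), and had both EPZ011989 values below both vehicle values (76.8% of genes tested). By limma, 7 of the 8 members that could be tested were lower with EPZ011989 and 0 were higher, where 60.2% of 9601 genes tested were lower. With both EPZ011989 values at 0, the replicate spread of each member came from the vehicle libraries alone.

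Among the receptors, NOTCH3, on chromosome 19 from 15159038 to 15200995, had the most H3K27me3 within 2500 bp of its ends. NOTCH4 had more over the whole gene with these flanks, 29829 and 31431 bp in vehicle against 18054 and 27216 bp for NOTCH3. The NOTCH3 window held 7533 and 9956 bp in the vehicle libraries and 0 in both EPZ011989 libraries, and it fell by 8744.5 bp (limma SE 1177 bp, adjusted p = 0.0275). Peaks covered 31.2% and 53.1% of the gene body in vehicle replicates 1 and 2, so replicate 2 was the wider at both scales. NOTCH4, on chromosome 6 from 32194843 to 32224067, is best known from endothelium. Its window held 6621 and 7208 bp in vehicle and 0 in both EPZ011989 libraries (limma SE 260.7 bp, adjusted p = 0.00124). Peaks covered 93.5% and 99.0% of its body. The peak over its start site was 65637 and 124008 bp wide in vehicle replicates 1 and 2. Merging the peaks of both replicates gave a region of 189 kb, which also overlapped the start of GPSM3 and overlapped TSBP1.

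NOTCH1, the receptor of most tissues, on chromosome 9 from 136494433 to 136546048, was marked around its start site and little elsewhere. Its window held 4162 and 4727 bp in vehicle and 0 in both EPZ011989 libraries (limma SE 251.3 bp, adjusted p = 0.00291), while 12.8% and 9.28% of the body was covered. NOTCH2, on chromosome 1 from 119911553 to 120069662, stood apart. It had 0 bp of H3K27me3 in all 4 libraries, over its body as well as its window, and the nearest vehicle region lay 108 kb away.

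Of the ligands, DLL1, on chromosome 6 from 170282206 to 170291078, had 5001 and 5739 bp in vehicle and 0 bp in both EPZ011989 libraries (limma SE 328.1 bp, adjusted p = 0.00341). Its higher-numbered end overlaps FAM120B, and the main peak, 14282 and 14791 bp wide, reached into both genes. DLL4, the ligand of sprouting vessels, on chromosome 15 from 40929340 to 40939073, had 4251 and 5001 bp in vehicle and 0 with EPZ011989 (limma SE 333.4 bp, adjusted p = 0.00482). JAG1, on chromosome 20 from 10637684 to 10673999, was covered over all 5001 bp around its start site in both vehicle libraries and over 0 bp in both EPZ011989 libraries. Its limma adjusted p, 3.21e-06, reflects this ceiling and floor, since the replicates were identical.

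The remaining ligands carried little or no H3K27me3. DLL3, on chromosome 19 from 39498947 to 39508469, had 0 bp in vehicle replicate 1 and 1726 bp in replicate 2, and 0 in both EPZ011989 libraries. The treatments overlapped, and limma did not call it (difference −863 bp, SE 766.8 bp, adjusted p = 0.361). That single peak stood at 43.7% from the top of its list by the authors' q. Both vehicle libraries also had a peak 7276 and 6279 bp wide that began past the window at the gene's higher-numbered end. JAG2, on chromosome 14 from 105140995 to 105168776, had 0 bp in all 4 libraries, and the nearest vehicle region lay 12.9 kb from the gene. At HES1, on chromosome 3 from 194136148 to 194138732, the target gene, vehicle H3K27me3 covered 100% of the gene body in both replicates. Its window held 4536 and 4837 bp in vehicle and 0 bp in both EPZ011989 libraries (limma SE 134.4 bp, adjusted p = 0.000697).

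**Figure D1:**
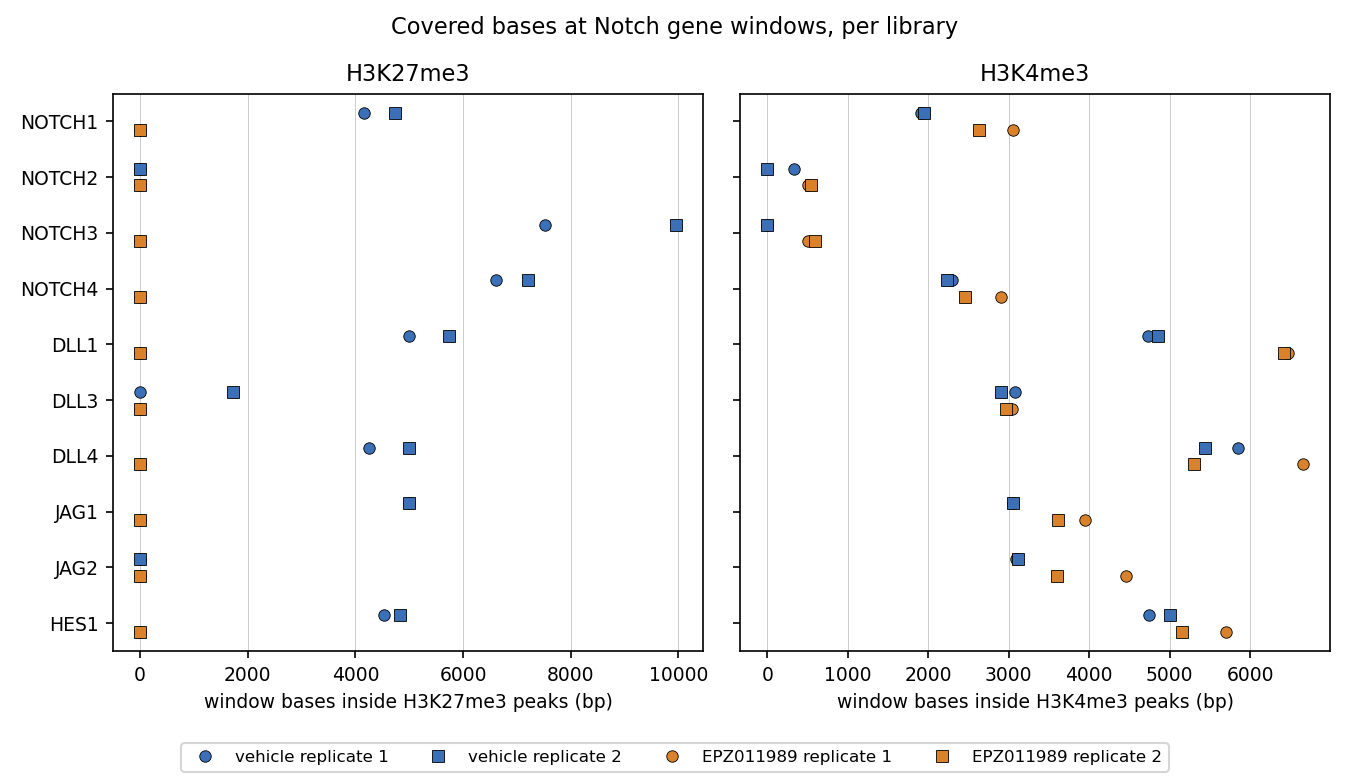
Bases of each gene's window inside H3K27me3 peaks (left) and H3K4me3 peaks (right), in bp, 1 point per library, with circles for replicate 1 and squares for replicate 2. On the left, EPZ011989 points lie at 0 for all 10 genes while 7 genes have both vehicle points at 4162 bp or more; on the right, DLL3 and DLL4 are the genes whose treatments overlap.

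The stand-in for depth moved with this result, because both EPZ011989 H3K27me3 libraries had the lower background. For each member the strongest vehicle peak was therefore turned into fragments and scaled by the ratio of backgrounds. At the depth of EPZ011989 replicate 1 it would hold 6.32 to 8.03 fragments for NOTCH1, NOTCH4 and DLL1. The most frequent peaks of that list hold 5, which is also its lowest value. The same vehicle peaks of HES1, JAG1, NOTCH3, DLL4 and DLL3 would hold 1.70 to 4.70 fragments. At the depth of EPZ011989 replicate 2, where the most frequent and lowest value is 4, all 8 would hold 0.674 to 3.18. From vehicle replicates 1 and 2, JAG1, at 4.70 and 4.47, and HES1, at 4.30 and 3.61, came nearest from below to the lowest value in EPZ011989 replicate 1. These scaled values are means that single libraries scatter around, so they set no limit of detection, and the part of depth in the result was not tested. The values are also means over broad peaks, and the local maximum within a peak is not in the lists. Leaving out either one of the EPZ011989 libraries, 4 members were called (NOTCH1, NOTCH4, JAG1 and HES1). The limma adjusted p without replicates 1 and 2 was then 0.0518 and 0.0522 for DLL1, 0.0624 and 0.0628 for DLL4, and 0.224 for NOTCH3 in both cases. With the replicate block, NOTCH3 had an adjusted p of 0.12.

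In vehicle, H3K4me3 was listed in both libraries at 8 of the 10 windows (65% of all genes), all but NOTCH2 and NOTCH3. Both marks were listed together throughout vehicle at 6 of the 10 windows (24.2% of all genes): NOTCH1, NOTCH4, DLL1, DLL4, JAG1 and HES1. At NOTCH1 and JAG1 all of the H3K4me3 lay under H3K27me3, 1910 and 1948 bp for NOTCH1 and 3050 and 3056 bp for JAG1 in replicates 1 and 2. At DLL4 the share was 72.6% and 87.6%, at DLL1 69.1% and 88.5%, and at NOTCH4 70.4% and 87.7%. The NOTCH4 overlap lay at the far end of the gene, over the start of its neighbour GPSM3. Within 2500 bp of the NOTCH4 start site, H3K4me3 covered 0 bp in both vehicle libraries. The share at HES1 was 60.7% and 53.2%. There the H3K27me3 peak ran from −637 and −348 bp, relative to the start site, past the gene's end. The H3K4me3 peak began at −2552 and −2601 bp, so most of the upstream flank carried H3K4me3 alone. Same-numbered libraries of a treatment come from 1 divided culture, but they cannot tell whether both marks sat on the same chromosomes or in different cells.

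The second question was whether H3K4me3 differed between treatments at these genes. In 8 of the 10 windows both EPZ011989 values exceeded both vehicle values, and in 0 both were below, where 24.4% of 13796 genes tested were above and 12.7% below. The 8 include NOTCH4, whose H3K4me3 lay at the far end of the gene, at its neighbour GPSM3. Among genes with H3K27me3 in both vehicle libraries the shares were 41.3% above and 5.62% below, and 6 of the 7 such members were above. The median difference over the 10 members was 552 bp, against 52.0 bp over all genes tested and 221.5 bp over those with vehicle H3K27me3. None of the 10 passed limma after adjustment, which called 0% of all genes higher and 0% lower. On simulated data the same fit called 21 of 100 changes of 1000 bp and 55 of 100 of 2000 bp. A member that was not called may therefore still differ. By limma without adjustment, 5 members had a p under 0.05 with a positive difference (8.41% of all genes tested) and 0 with a negative one (1.48%). The members' median was 862.5 bp with EPZ011989 replicate 1 alone and 436.5 bp with replicate 2 alone. Over all genes tested these libraries gave 187 bp and −77.5 bp.

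DLL1 had the largest difference of the 10. Its H3K4me3 measured 4732 and 4853 bp in vehicle and 6469 and 6421 bp with EPZ011989, a difference of 1652.5 bp (limma SE 290.1 bp, adjusted p = 0.184). The groups did not overlap. The peak over its higher-numbered end, shared with FAM120B, was 3271 and 3506 bp wide in vehicle and 8896 and 6213 bp with EPZ011989. Part of the 8896 bp is stretch that vehicle lists held as separate peaks, of 1287 bp in replicate 1 and of 1228 and 908 bp in replicate 2. EPZ011989 replicate 2 kept a separate peak of 1059 bp there. With windows of 1000 bp the difference was 77.5 bp, so the added length lay farther from the gene ends.

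Of the other ligands, JAG2 had 3087 and 3119 bp in vehicle and 4452 and 3598 bp with EPZ011989 (difference 922 bp, limma SE 324.2 bp, adjusted p = 0.45). In this window it was wider in both EPZ011989 libraries although no H3K27me3 peak was listed at it in vehicle. Over the gene body of JAG2, H3K4me3 covered 15.9% and 16.6% in vehicle and 15.6% and 15.2% with EPZ011989. The peak over its start site was 4325 and 4542 bp wide in vehicle and 6284 and 4978 bp with EPZ011989. JAG1 had 3050 and 3056 bp in vehicle and 3945 and 3611 bp with EPZ011989 (difference 725 bp, limma SE 213.4 bp, adjusted p = 0.379). Its peak reached 1909 and 1914 bp past the start site in vehicle and 2495 and 2470 bp with EPZ011989.

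DLL4 and DLL3 were the genes whose treatments overlapped. DLL4 had 5853 and 5440 bp in vehicle and 6655 and 5297 bp with EPZ011989 (difference 329.5 bp, limma SE 526.8 bp, adjusted p = 0.915). Nearly all of its start-site window was already covered in vehicle, at 5001 and 4764 of 5001 bp, which leaves the measure little room to grow there. DLL3 had 3081 and 2907 bp in vehicle and 3035 and 2967 bp with EPZ011989. The difference of 7 bp was smaller than the spread between the vehicle replicates (limma SE 196.3 bp, adjusted p = 1.0), and its sign turned with the setting. By the authors' q its peak stood at 18.54% and 18.96% from the top of the vehicle lists, and no more than 21.5% from the top with EPZ011989.

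**Figure D2:**
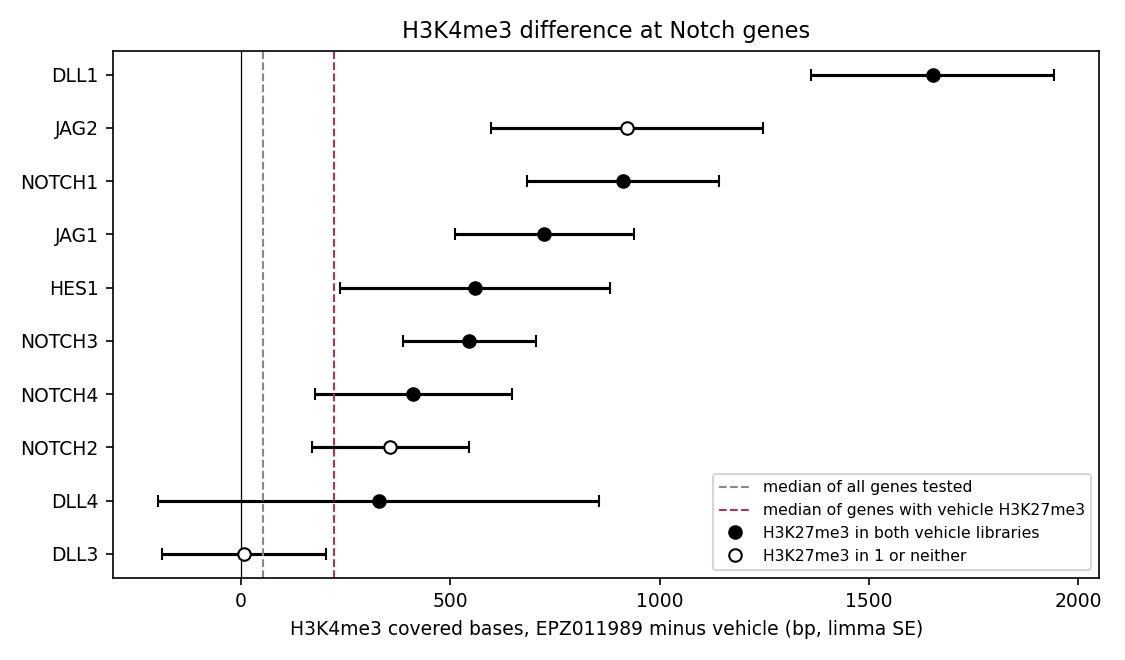
H3K4me3 difference in covered bases, EPZ011989 minus vehicle, in bp with the limma standard error, for each gene; filled points carried H3K27me3 in both vehicle libraries, and dashed lines are the medians of all genes tested (52.0 bp) and of genes with vehicle H3K27me3 (221.5 bp). DLL1 lies farthest right at 1652.5 bp and DLL3 at 7 bp; none passed after adjustment.

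Among the receptors, NOTCH1 had 1910 and 1948 bp of H3K4me3 in vehicle and 3053 and 2630 bp with EPZ011989 (difference 912.5 bp, limma SE 228.7 bp, adjusted p = 0.314). Its window holds 1 peak per library, which spans the start site, and its inner edge lay 799 and 902 bp past the start in vehicle and 1423 and 1506 bp with EPZ011989. The microRNA gene MIR4674 lies in the same stretch. NOTCH3 had 0 bp in both vehicle libraries and 502 and 590 bp with EPZ011989 (limma SE 158.8 bp, adjusted p = 0.372). Of the members it alone had a peak in each EPZ011989 library and none in vehicle, as 0.921% of all genes did, and 0 members had the reverse.

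That NOTCH3 peak began 527 and 559 bp past the start site. Deeper in the gene, H3K4me3 peaks stood in all 4 libraries from about 4.5 kb, where the width was 1049 and 990 bp in vehicle and 1399 and 1439 bp with EPZ011989. Over the whole gene with its flanks, H3K4me3 covered 2547 and 2389 bp in vehicle and 4251 and 4245 bp with EPZ011989. In this measure, added after the data were examined, the limma difference was 1780 bp (SE 286.8 bp, adjusted p = 0.107). The H3K4me3 background, the stand-in for depth, was higher with EPZ011989, so the start-site peak was also scaled. Its 19 and 13 fragments would be 7.37 and 5.98 at the depth of vehicle replicate 1, whose most frequent peaks hold 6 and whose lowest hold 4. At the depth of vehicle replicate 2 they would be 11.04 and 8.96, where the most frequent peaks hold 7 and the lowest 5. The part of depth in the H3K4me3 differences of the members was not tested.

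NOTCH2 had 338 and 0 bp in vehicle and 505 and 547 bp with EPZ011989 (difference 357 bp, limma SE 187.9 bp, adjusted p = 0.64). Its peak was short in each library that had one and began 31 to 67 bp past the start site. NOTCH4 had 2300 and 2230 bp in vehicle and 2901 and 2453 bp with EPZ011989 (difference 412 bp, limma SE 235.2 bp, adjusted p = 0.679). That H3K4me3 lay at the far end of the gene, over the start of the overlapping neighbour GPSM3, and within 2500 bp of the NOTCH4 start site there were 0 bp in all 4 libraries. The NOTCH4 start site, covered over 5001 bp by H3K27me3 in both vehicle libraries, therefore lost the listed H3K27me3 with no H3K4me3 peak appearing.

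HES1 had 4739 and 5001 bp of H3K4me3 in vehicle and 5703 and 5154 bp with EPZ011989 (difference 558.5 bp, limma SE 322.7 bp, adjusted p = 0.682). The treatments did not overlap, but the gap between vehicle replicate 2 and EPZ011989 replicate 2 was smaller than the spread between either pair of replicates. Within 2500 bp of the start site alone they overlapped, at 4739 and 4813 bp in vehicle and 5001 and 4804 bp with EPZ011989. A second peak beyond the gene crossed the window's far edge in vehicle replicate 2 and both EPZ011989 libraries. In vehicle replicate 1 it began 5235 bp past the start site, outside the window. The peak over the start site, which takes in both TGGGAA stretches, was 4791 and 4914 bp wide in vehicle and 5753 and 5013 bp with EPZ011989. For single genes an exact two-sided permutation test over the 6 labellings of 2 and 2 libraries cannot go below p = 0.333, and it gave 0.333 for H3K4me3 at each member except DLL3 and DLL4, where it gave 1.0.

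**Figure D3:**
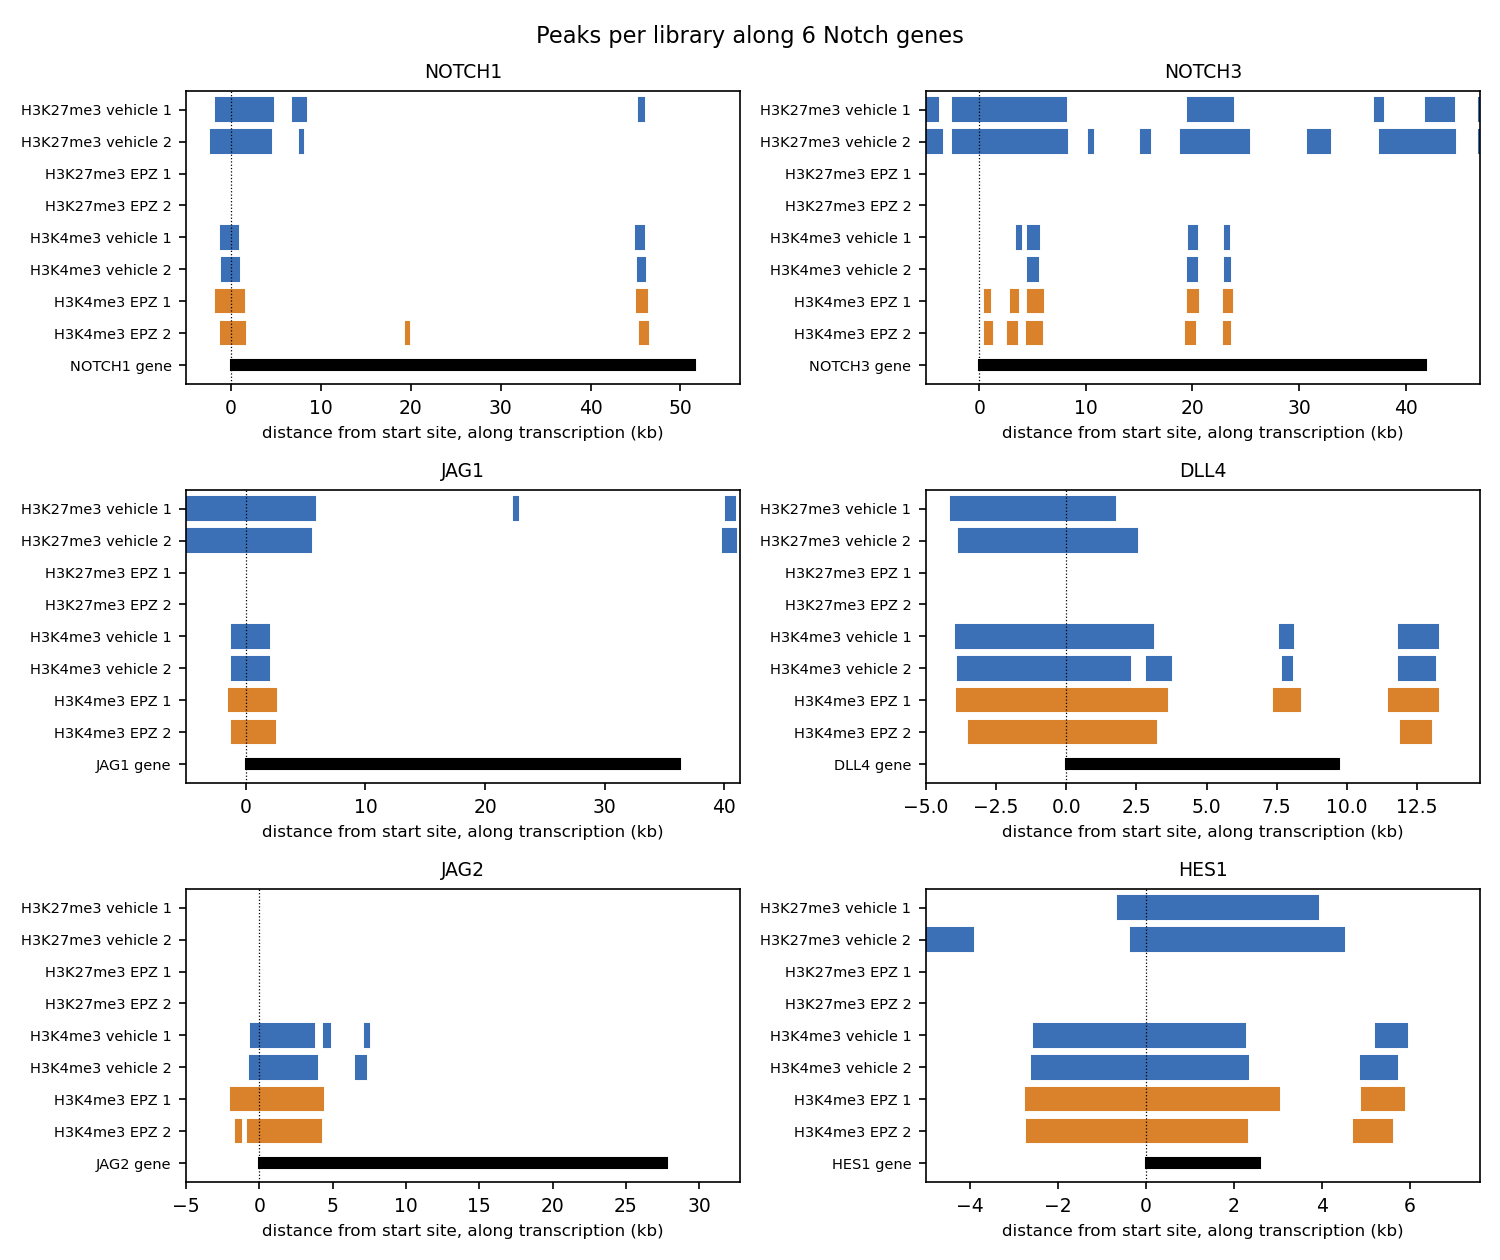
Peaks of each library along 6 of the genes, as distance from the start site in kb, blue for vehicle and orange for EPZ011989 (EPZ in the row labels), with the gene as a black bar. H3K27me3 rows of EPZ011989 are empty; NOTCH3 has a H3K4me3 peak beginning 527 and 559 bp past the start site with EPZ011989 alone, and JAG2 has no H3K27me3 in any row.

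Other genes of the pathway, from a list of 56 of which 55 had a window, were counted in the same way. H3K27me3 was present at 19 of the 55 in each vehicle library and absent with EPZ011989 (36.8% of all genes), and 14 of 23 tested fell by limma (60.2% of all genes tested). Both shares of the list are near those of all genes. Of the pathway's target genes, 6 of 10 were marked (36.9% of all genes) and 6 of 6 tested fell (60.2% of all genes tested); with so few genes nothing particular to targets can be read from this. These repressors of the HES and HEY families included HES7, with 8201 and 8655 bp in vehicle, and HEYL, with 7010 and 7274 bp. HEY2 had 5001 and 7364 bp and HES4 6134 bp in both. All 4 had 0 bp with EPZ011989 (limma adjusted p = 0.00158, 0.000385, 0.0281 and 3.21e-06 in that order). The HES4 value, like that of JAG1, reflects identical replicates. DTX1, a ubiquitin ligase of Notch turnover, had 5001 and 5781 bp in vehicle and 0 with EPZ011989 (limma adjusted p = 0.00381). The 17 genes of sugar transfer, ligand uptake and receptor cleavage carried H3K27me3 at 4, and the 18 of the nuclear complex at 4. RBPJ itself had 0 bp of either mark in its windows, which lie at the outermost annotated ends of the gene.

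For H3K4me3, 0 of the 50 genes tested from that list passed limma in either direction after adjustment. Without adjustment, 4 had a limma p under 0.05 with a positive difference and 0 with a negative one (8.41% and 1.48% of all genes tested). Both EPZ011989 values exceeded both vehicle values at 16 (24.4% of all genes tested) and were below both at 6 (12.7%). The median difference was 78.5 bp, against 52.0 bp over all genes tested. HES4 had 2934 and 2496 bp in vehicle and 4107 and 3576 bp with EPZ011989 (difference 1126.5 bp, limma adjusted p = 0.314). DTX1 had 711 and 828 bp in vehicle and 1571 and 1762 bp with EPZ011989 (limma adjusted p = 0.206). HEY2 and NEURL1B, for a ligase that promotes ligand uptake, differed by 757.5 and 726 bp (limma adjusted p = 0.657 and 0.448). HEY1, at 855 bp, had 4165 bp in EPZ011989 replicate 1 and 2639 bp in replicate 2, close to the 2619 bp of vehicle replicate 2, so its difference rests on 1 library. RBPJL, a relative of RBPJ, had 250 and 557 bp in vehicle and 0 in both EPZ011989 libraries, and was the 1 gene of the list to lose its peak (0.14% of all genes did). HES7 kept nearly the same H3K4me3, 8376 and 8317 bp in vehicle against 8420 and 8234 bp with EPZ011989, while its H3K27me3 fell by 8428 bp. A window holds at most 10002 bp, which left this H3K4me3 limited room to grow.

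**Figure D4:**
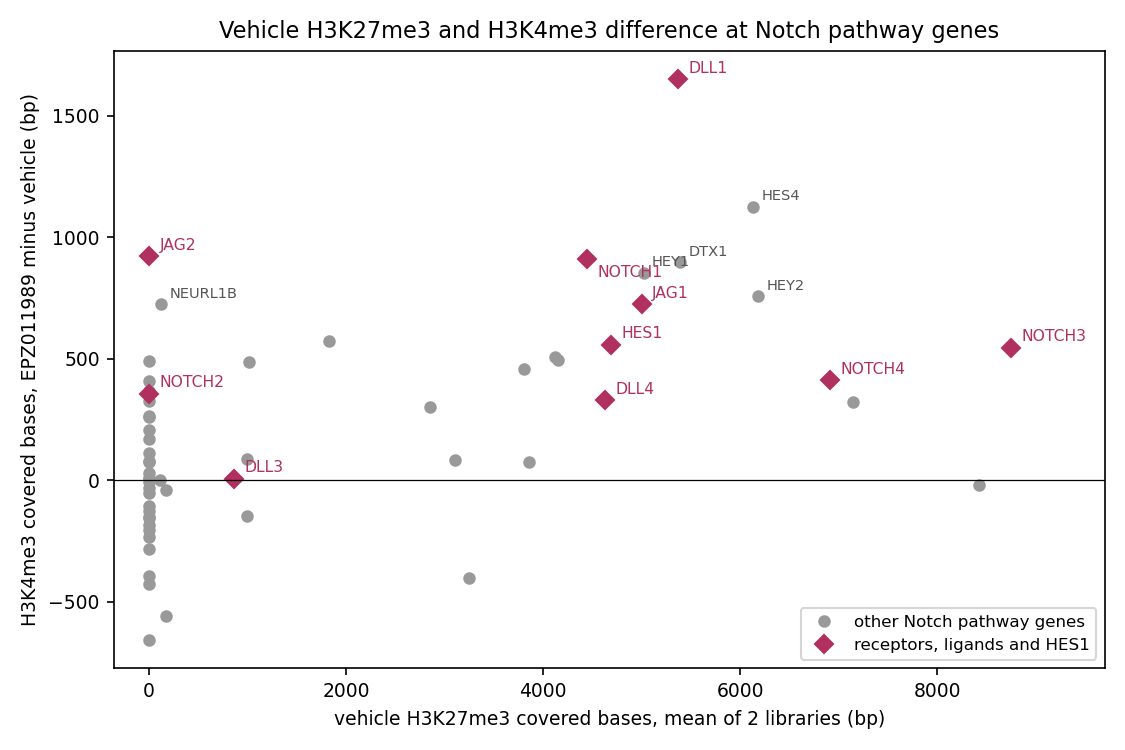
Vehicle H3K27me3 covered bases (mean of 2 libraries, bp) against the H3K4me3 difference (EPZ011989 minus vehicle, bp) for the 10 genes (diamonds) and the other pathway genes with a H3K4me3 peak in any library (grey). DLL1 and HES4 are highest among genes with vehicle H3K27me3, at 1652.5 and 1126.5 bp, and JAG2 is highest among those with none, at 922 bp.

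By covered bases over the 8 libraries of both marks, the genes nearest to DLL3 were KCNQ3, SESN3 and PIGM, at Euclidean distances of 369 to 419 bp. Each had H3K27me3 in vehicle replicate 2 alone, and H3K4me3 between 2757 and 3363 bp in all 4 libraries. Those nearest to HES1 were PRSS12, FHOD1 and NR4A3, at 523 to 792 bp. These distances describe likeness in extent of 2 marks and were given no test.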

How the data were processed

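The deposited files are 1 peak list per library on hg38, in broad format where the antibody was H3K27me3 and in narrow format otherwise. MACS2 2.1.1.20160309, Bowtie2 2.2.9, SAMtools 0.1.19 and FastQC are named in the submitters' processing notes; roles, thresholds, control library and use of the E. coli spike-in are not given in the sources used here. In the column order of the MACS2 formats, each deposited peak carries the authors' MACS2 fold (a ratio of pileup to local background), −log10 p, −log10 q and a score, 10 times the −log10 q cut to a whole number. The fold and −log10 p of the most frequent deposited fold fixed the background under the Poisson model of MACS2; the solver was tested on simulated data. Gene ends came from RefSeq on GRCh38.p14, and strand, for 15813 of 19974 genes and 8 of 10 members, from its promoter table.

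Covered bases per window were compared within each mark, 2 against 2 libraries, using limma 3.58.1 (R 4.3.3) with its trend and robust options, for genes that any of the 4 libraries marked. Benjamini-Hochberg adjustment ran over all genes tested, with a threshold of 0.05. A peak overlapping a window by 1 bp or more counted as present. The test was also run on simulated data, drawn around the vehicle means with the vehicle spread. For H3K27me3 it called 85 of 200 genes set to 0 and 19 of 9392 left unchanged. For H3K4me3 it called 21 of 100 genes raised by 1000 bp, 55 of 100 raised by 2000 bp and 2 of 13129 left unchanged. Other steps used scipy 1.17.1, pandas 2.3.3 and numpy 2.4.6 under Python 3.11.15.

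The members and lists were chosen with earlier results of these data known. All members were named. Of the other pathway genes, those called for H3K4me3, those gaining or losing its peak in both libraries and the 5 with the largest difference in each mark were named, with the 3 genes nearest to DLL3 and to HES1. Replicate numbers pair antibodies of 1 culture; no source pairs them across treatments. Nearby windows share peaks, so genes are not independent replicates.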

Additional observations from a re-analysis of the deposited data

How the results depend on the processing

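H3K27me3 stayed at 0 with EPZ011989 at each member under each window and overlap tried, and the extent of the peaks set the size of the difference. Its median over the 10 members, −4656 bp, was −2001 bp with windows of 1000 bp, −6312 bp with windows of 5000 bp, −2356 bp after quantile normalization and −6171 bp over whole genes, the last added after the data were examined. Leaving out single libraries gave 4 to 8 members called lower, where 7 were called with all, and 3210 to 8885 of all genes against 5784. Leaving out a vehicle library makes most spreads 0, so those calls carry no replicate error. The count of all genes lower was 3301 with a −log10 q of at least 5 and 3716 with start-site windows, and 0 to 7 genes were higher without single libraries. The fit with no filter could not be made for H3K27me3.

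For H3K4me3 the members' median, 552 bp, was 146 bp with windows of 1000 bp, 776 bp with windows of 5000 bp, and 436.5 to 862.5 bp without single libraries. Over all genes, windows of 1000 bp gave 2 higher and 4 lower and windows of 5000 bp 35 higher. The counts were 80 higher and 6 lower after quantile normalization, 4 higher over whole genes, and 491 higher and 32 lower with no filter. With no filter 1 member, DLL1, was higher (limma adjusted p = 0.0144). A H3K4me3 peak in both vehicle libraries was present at 8 members, and at 5 of the 8 with a known strand when start-site windows were used. The DLL3 difference was −193.5 bp with windows of 5000 bp and over the whole gene, −38.2 bp after quantile normalization, and −80 to 94 bp without single libraries (−80 bp without vehicle replicate 2, −27 bp without EPZ011989 replicate 1). That of DLL4 was −349.5 to 1008 bp, lowest without EPZ011989 replicate 1. The cause of these changes was not tested.

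With the replicate block, 4555 of all genes were lower for H3K27me3 and 0 changed for H3K4me3, and NOTCH3 was the 1 member whose call was lost. Differences between replicates 1 and 2 had a correlation across treatments, over genes, of 0.016 for H3K27me3 and −0.03 for H3K4me3. For H3K27me3 a value near 0 was set in advance, because 0.205% of all genes had a peak in either EPZ011989 library. Neither value can tell whether cultures were paired across treatments. The background that stands in for depth runs with treatment in both marks, lower with EPZ011989 for H3K27me3 and higher for H3K4me3. Each group has 2 libraries.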
